A study of Mus musculus with 10 samples.

Results

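The transcripts of 49 mitotic genes, of 22923 gene symbols measured, were followed through 10 RNA sequencing libraries of mouse blood cell precursors. The genes were taken as a list of symbols, drawn up with earlier results of these data in view. They comprise B cyclins with CDK1, mitotic kinases, chromosomal passenger, checkpoint, kinetochore, kinesin, condensin and cytokinesis genes, and all 49 had a row in every library. The cells came from C57bl/6 mice at 4 weeks of age and were sorted into 5 populations, which were cycling and quiescent CD4+CD8+ thymocytes from the thymus and large pre-B cells, small pre-B cells and mature granulocytes from the bone marrow. Control mice were Dyrk1a flox/flox, Mx1-Cre-, and thus carried the floxed alleles without the recombinase. The other mice are labelled Dyrk1a -/-, Mx1-Cre+ (conditional knockout, CKO). In both, 2 mice were pooled, and each population and genotype gave 1 library. The Mx1 promoter is interferon-inducible and not restricted to blood cells. Values are read as FPKM (sequenced fragments normalised to transcript length and library size), and differences are given on the scale log2(FPKM + 1), which understates changes of low genes. All libraries of a genotype share 1 pool of mice, so the p-values below measure the spread between these libraries and not between animals.

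Entry into mitosis is driven by cyclin-dependent kinase 1 bound to a B cyclin, with Polo-like and Aurora kinases acting beside it. Kinetochores then attach chromosomes to spindle microtubules under the watch of the spindle assembly checkpoint, condensins compact the chromosomes, the anaphase-promoting complex (APC/C) targets cyclins and securin for destruction, and a contractile ring divides the cell. Most of these genes are transcribed late in the cell cycle and repressed in resting cells, in part by the DREAM complex, whose LIN52 subunit is a substrate of the DYRK1A kinase. Developing B and T cells proliferate and then stop dividing while they rearrange antigen receptor genes.

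Sequence motifs known from promoters of this class were searched in the RefSeq promoters (build GRCm38.p6, 250 bases before to 50 bases after the start), which matched 42 of the 49 genes by symbol. These motifs are the cell cycle homology element TTTGAA, or TTCGAA, to which the MuvB core of DREAM binds, and the box CCAAT, the site of NF-Y, each on either strand. TTTGAA was found in 31 of the 42 genes (73.8%) and in 20.2% of 27025 genes in the table. TTCGAA was present in 3 (7.1%) against 1.8%, CCAAT in 32 (76.2%) against 41.1%, and a CCAAT together with 1 of the 2 hexamers in 28 (66.7%) against 8.6%. At least 2 CCAAT boxes lay in the 250 bases before the start in 21 of 42 genes and in 11.5% of all genes. In those 250 bases alone TTTGAA was found in 16 of 42 genes (38.1%) and in 18.3% of all genes. The motifs can share bases with each other, as do the CCAAT boxes on opposite strands at positions -186 and -183 of Ube2c. Such boxes were counted as separate places. The stretches upstream of 6 genes are shown because the results turn on these genes: Ccnb2, Cdk1, Top2a and Mki67 were low in resting cells, Fam83d has the motifs of the class and another pattern in thymocytes, and Birc5 had the lowest fitted thymocyte difference with none of these letters in its window. They run 5′ to 3′ on the strand of the gene, end at or shortly before the start, and carry the motifs in capitals, with ATTGG and TTCAAA for the reverse strand.
Ccnb2, chr9:70421555-70421734, minus strand: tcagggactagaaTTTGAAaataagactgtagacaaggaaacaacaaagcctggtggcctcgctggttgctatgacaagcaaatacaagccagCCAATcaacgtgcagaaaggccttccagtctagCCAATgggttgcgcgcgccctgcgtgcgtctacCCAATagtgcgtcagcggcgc
Cdk1, chr10:69352939-69353132, minus strand: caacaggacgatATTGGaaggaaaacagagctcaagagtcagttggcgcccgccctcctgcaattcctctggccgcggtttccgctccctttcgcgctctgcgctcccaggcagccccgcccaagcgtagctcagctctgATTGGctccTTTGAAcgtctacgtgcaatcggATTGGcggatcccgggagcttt
Top2a, chr11:99024190-99024429, minus strand: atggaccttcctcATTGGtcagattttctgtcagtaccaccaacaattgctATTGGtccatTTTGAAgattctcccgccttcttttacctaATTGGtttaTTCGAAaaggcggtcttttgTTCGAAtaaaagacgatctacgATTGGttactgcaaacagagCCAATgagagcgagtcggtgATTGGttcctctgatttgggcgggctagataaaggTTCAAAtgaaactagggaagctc
Mki67, chr7:135716380-135716579, minus strand: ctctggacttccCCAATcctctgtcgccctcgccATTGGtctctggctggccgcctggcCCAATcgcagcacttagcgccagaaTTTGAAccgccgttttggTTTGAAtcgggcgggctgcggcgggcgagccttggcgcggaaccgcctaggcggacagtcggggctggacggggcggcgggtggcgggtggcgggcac
Fam83d, chr2:158767929-158768092, plus strand: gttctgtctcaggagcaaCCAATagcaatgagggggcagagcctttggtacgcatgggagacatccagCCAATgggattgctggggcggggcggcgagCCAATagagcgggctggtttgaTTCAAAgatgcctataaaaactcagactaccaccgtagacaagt
Birc5, chr11:117849137-117849236, plus strand: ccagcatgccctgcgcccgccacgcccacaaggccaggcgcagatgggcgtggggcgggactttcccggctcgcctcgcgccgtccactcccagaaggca

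A match is a description of these letters and not of a bound site. In the Top2a stretch both hexamers stand between repeated boxes, and the Mki67 stretch holds TTTGAA motifs next to 3 CCAAT boxes. Outside the stretches shown, TTTGAA also begins at position -15 from the start in Cdk1 and at position 5 in Ccnb2. No motif was found in the window of Pttg1, nor in those of Birc5, Mad2l1, Nuf2, Nusap1 and Ncaph. Unlike Pttg1, these other genes fell in quiescent thymocytes, with 0.520% of the cycling level left for Nuf2 and 1.33% for Nusap1 in control cells. A relation between motifs and levels was not tested.

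The labels were checked on the libraries before the genes were compared. The summed FPKM of 10 T-lineage markers lay between 2466 and 4193 in the 4 thymocyte libraries and between 10.1 and 30.3 elsewhere, and that of 10 B-lineage markers between 2692 and 5164 in the pre-B libraries and between 2.63 and 31.1 elsewhere. Dyrk1a itself was not lower in the CKO-labelled libraries at the level of the whole gene, with 37.4 and 44.7 FPKM (control first, as in every pair below) in quiescent thymocytes and 34.1 and 36.9 FPKM in small pre-B cells. The labels do not say which part was deleted, so this value does not test the genotype. Library totals were 360394 to 431868 FPKM in lymphoid cells and 830006 and 1074258 FPKM in granulocytes. There S100a9, an abundant neutrophil gene, is listed at 0 in both libraries, and the granulocyte markers Ngp and S100a8 at 0 in the control library only. The number of sequenced fragments per library is not known. Granulocyte precursor genes, such as Elane, summed to 924 and 386 FPKM in large pre-B cells and to 21.3 and 11.7 FPKM in small pre-B cells, and the part of such cells in the mitotic values of large pre-B cells was not tested.

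**Figure D1:**
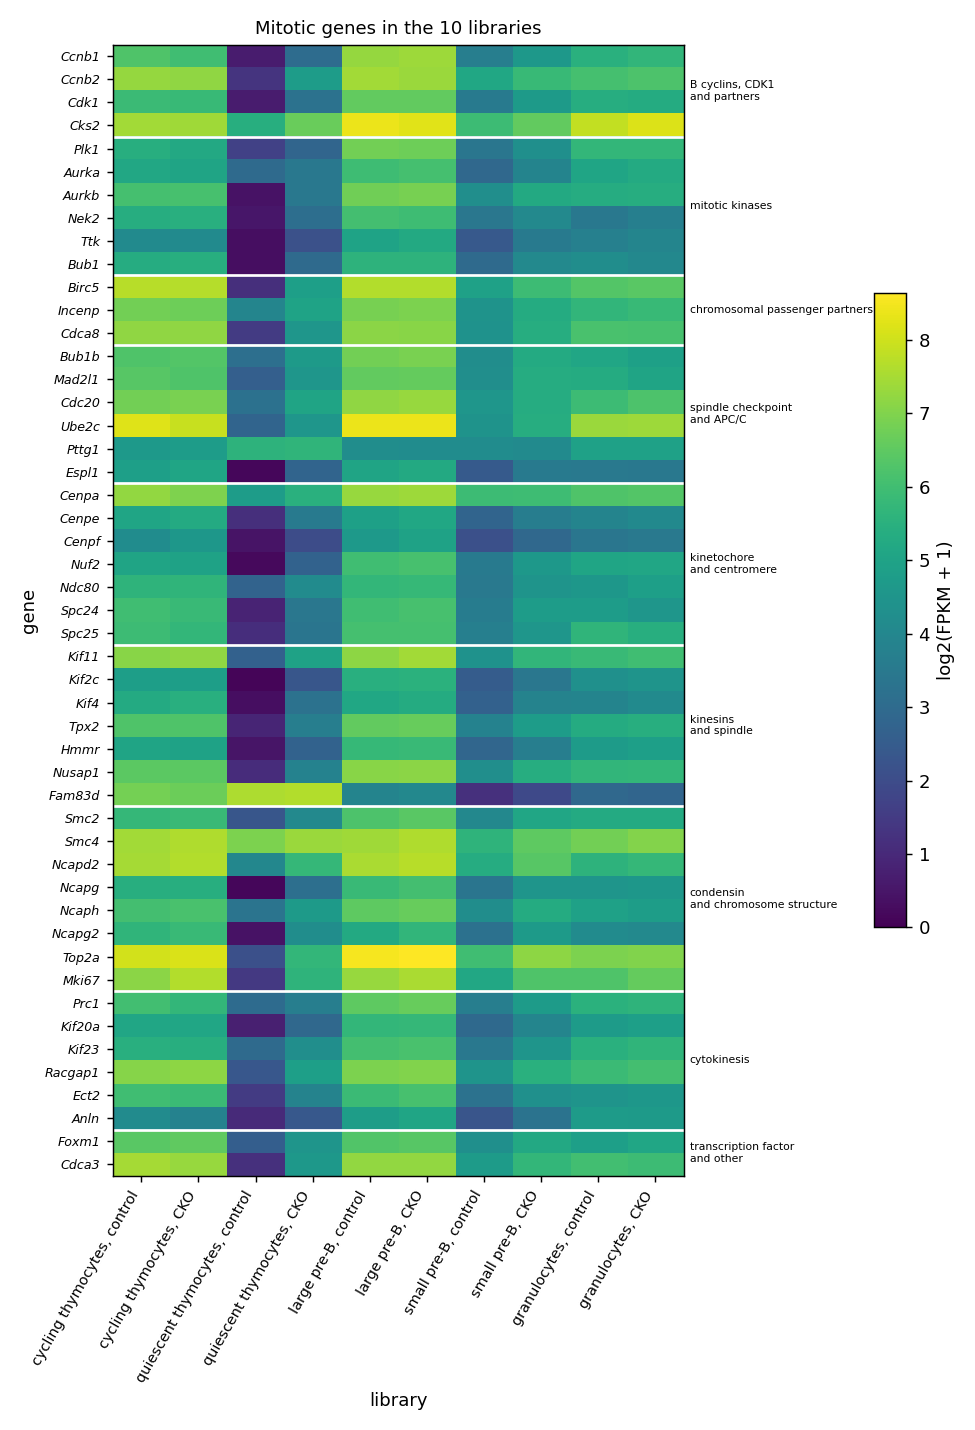
Level of each of the 49 mitotic genes (rows, grouped by role) in the 10 libraries (columns), as log2(FPKM + 1) on a colour scale from 0. The column of control quiescent thymocytes is the darkest, and Fam83d, Smc4, Pttg1 and Cks2 are its brightest genes, at 187, 120, 47.1 and 41.2 FPKM.

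Mitotic transcripts were scarce in quiescent control thymocytes. The median over the 49 genes was 63.5 and 58.8 FPKM in the cycling and 1.70 and 15.8 FPKM in the quiescent thymocyte libraries, 89.7 and 94.4 FPKM in large pre-B cells and 12.1 and 25.9 FPKM in small pre-B cells. For each gene the quiescent value was also taken as a percentage of the cycling value, and the median of this percentage was 2.02% in control thymocytes and 20.1% in CKO-labelled thymocytes. In pre-B cells the level in small cells relative to large cells had a median of 16.0% in control and 31.8% in CKO-labelled cells. In bulk RNA, fewer cells in mitosis and less RNA per cell cannot be told apart.

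**Figure D2:**
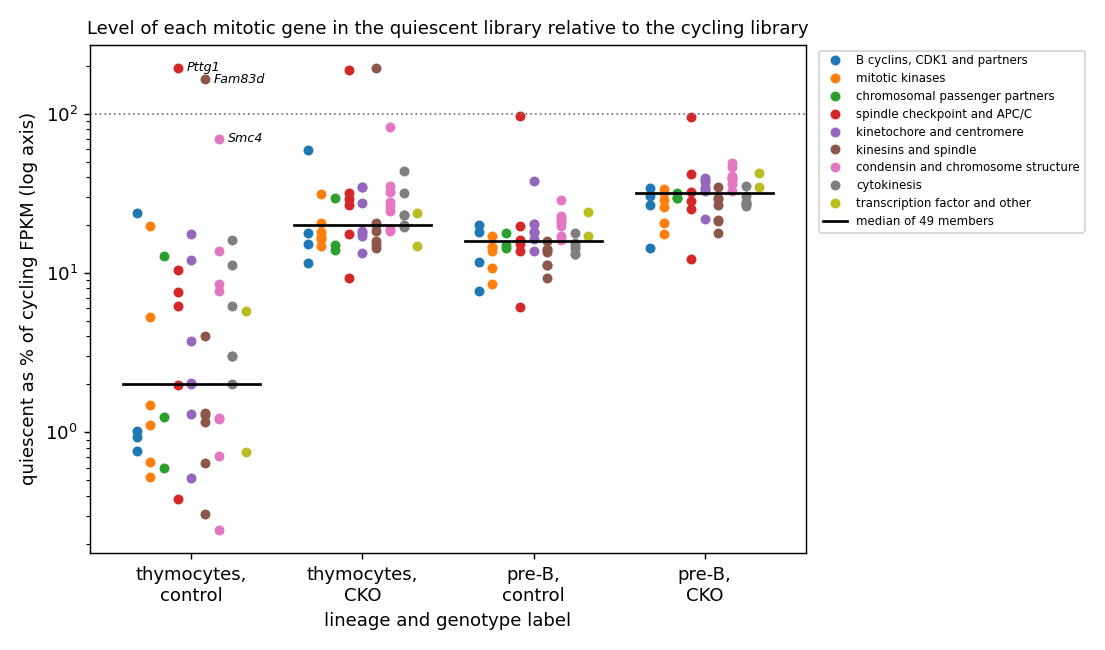
Quiescent (or small) level as a percentage of the cycling (or large) level for each gene, on a log axis, with 1 point per gene coloured by role and a black line at the median of 49. Medians were 2.02% and 20.1% in control and CKO-labelled thymocytes and 16.0% and 31.8% in pre-B cells, and Pttg1 and Fam83d lie above 100% in thymocytes.

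The fit over the 8 lymphoid libraries tested the state difference in both lineages, with 11126 genes and a block for each lineage and genotype. In thymocytes 46 of 49 mitotic genes fell in quiescent cells and 2 rose, where 19.7% and 25.2% of all genes tested were called lower and higher. The median of the 49 differences was -3.32, and that of all genes was 0.06. In pre-B cells 38 of 49 fell and none rose, where 21.8% and 25.6% of all genes were called lower and higher, and the median difference was -2.07. Unadjusted p-values under 0.05 in that comparison numbered 44 of 49. The 11 not called were Ccnb2, Aurkb, Birc5, Pttg1, Spc24, Kif4, Ncapg, Ncapg2, Top2a, Mki67 and Cdca3, of which all but Pttg1 had fitted values between -2.21 and -1.51. Both lineages shared 1 standard error per gene, so which genes were missed is not a result about pre-B cells alone. By role, calls of a fall in pre-B cells covered 6 of 6 cytokinesis genes, 6 of 7 kinetochore genes, 6 of 7 spindle genes and 4 of 8 condensin and chromosome genes. Without the control thymocyte pair 0 of 49 were called in thymocytes (0.0365% of all genes) at a median of -2.19, and without the control or the CKO-labelled pre-B pair 0 and 5 were called in pre-B cells (0.0276% and 13.2% of all genes). Those fits had 1 residual degree of freedom, which came from the pairs of the other lineage, and the tests of single genes given below share this dependence. Without the control or the CKO-labelled thymocyte pair the spread came from the pre-B pairs alone. In each of these 48 of 49 were called in pre-B cells (45.0% and 45.4% of all genes).

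**Figure D3:**
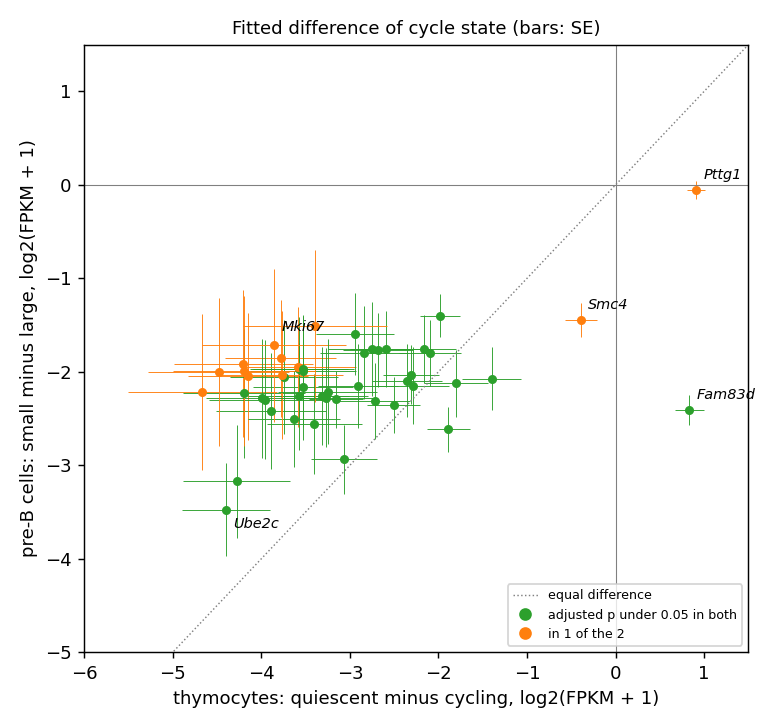
Fitted difference between quiescent and cycling thymocytes (horizontal axis) and between small and large pre-B cells (vertical axis) for the 49 genes, in log2(FPKM + 1) with bars of 1 standard error, coloured by whether the adjusted p was under 0.05 in both lineages or in 1 of them. Pttg1 and Fam83d lie at 0.91 and 0.83 in thymocytes, right of 0, and Ube2c lies lowest in pre-B cells at -3.48.

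The B cyclins and CDK1 showed the pattern of the group. Ccnb1, cyclin B1, measured 75.7 and 62.5 FPKM in cycling thymocytes, against 0.578 and 7.21 FPKM in quiescent thymocytes. Its pre-B values were 153 and 163 FPKM in large cells and 11.8 and 23.4 FPKM in small cells. In both lineages each resting library was below each dividing library, and the control resting library was the lowest. Ccnb2, cyclin B2, fell from 153 and 146 FPKM to 1.43 and 26.2 FPKM in thymocytes, a fitted difference of -4.21 (SE 0.78, limma adjusted p = 0.0120). Large pre-B cells held 172 and 161 FPKM of Ccnb2 and small cells 34.3 and 55.2 FPKM, a difference of -1.91 that did not pass the test (SE 0.78, limma adjusted p = 0.0958). Cdk1, the kinase that both cyclins activate, was listed at 57.6 and 56.0 FPKM in cycling and at 0.585 and 8.55 FPKM in quiescent thymocytes. In pre-B cells its values were 92.8 and 94.4 FPKM and then 10.9 and 25.2 FPKM, with no overlap between large and small cells. Cks2, a small subunit of CDK complexes, remained at 41.2 and 100 FPKM in quiescent thymocytes, or 23.9% and 59.2% of the cycling level.

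Mitotic kinases ranged widely in how much of their transcript was left. Aurkb, the kinase of the chromosomal passenger complex, measured 67.5 and 68.0 FPKM in cycling thymocytes and 0.355 and 10.1 FPKM in quiescent ones. Aurka, which acts at spindle poles, was at 34.9 and 32.1 FPKM and then at 6.89 and 10.0 FPKM, so that 19.8% and 31.2% were left. In pre-B cells Aurka was at 60.5 and 66.9 FPKM in large cells and at 6.52 and 13.8 FPKM in small cells. The order of these kinases therefore differed between the lineages as measured, since control small pre-B cells kept 10.8% of Aurka and 17.2% of Aurkb. Plk1, a kinase of mitotic entry and exit, fell by 3.07 in thymocytes (SE 0.37, limma adjusted p = 0.00675) and by 2.93 in pre-B cells (SE 0.37, limma adjusted p = 0.00489). Its values were 41.8, 36.1, 2.21 and 6.04 FPKM in control and CKO-labelled cycling and then quiescent thymocytes. Bub1, Ttk and Nek2 lay between 0.248 and 0.452 FPKM in control quiescent thymocytes and between 3.41 and 7.67 FPKM in the CKO-labelled ones.

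Among the partners of Aurora B, Birc5 (survivin) had the lowest fitted thymocyte difference of the 49 genes, -4.67 (SE 0.84, limma adjusted p = 0.0110). It was at 209 and 202 FPKM in cycling and 1.26 and 28.4 FPKM in quiescent thymocytes, and at 201 and 201 FPKM in large and 30.1 and 59.9 FPKM in small pre-B cells. Incenp, the scaffold of the same complex, kept 12.8% in control and 29.4% in CKO-labelled thymocytes. Cdca8 (borealin) kept 1.24% and 15.0%.

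Checkpoint and APC/C genes differed in how much transcript resting cells held. Ube2c, the ubiquitin-conjugating enzyme of the APC/C, was at 294 and 238 FPKM in cycling and 5.81 and 22.1 FPKM in quiescent thymocytes. It was at 336 and 334 FPKM in large and 20.7 and 40.9 FPKM in small pre-B cells, and its 6.16% and 12.3% were the lowest shares of the 49 genes in that lineage. Espl1, separase, which cuts cohesin at anaphase, was at 28.6 and 33.1 FPKM in cycling and at 0.109 and 5.84 FPKM in quiescent thymocytes. Cdc20, an activator of the APC/C, was left at 7.62% and 26.6%. The checkpoint genes Bub1b (BubR1) and Mad2l1 (MAD2), which hold CDC20 inactive, were left at 10.5% and 6.18% in control and at 31.9% and 29.3% in CKO-labelled thymocytes. Pttg1, securin, which holds separase inactive (chromosome 11, 43420250 to 43426251, minus strand, mm10), went the other way. Its values were 24.2 and 26.4 FPKM in cycling and 47.1 and 49.6 FPKM in quiescent thymocytes, and both quiescent libraries were above both cycling ones. In pre-B cells the 4 values of Pttg1 overlapped, with 17.9 and 17.2 FPKM in large and 17.3 and 16.4 FPKM in small cells. The securin transcript and that of its target enzyme thus had opposite signs of change in thymocytes, 0.91 for Pttg1 (SE 0.10, limma adjusted p = 0.00647) and -3.53 for Espl1 (SE 0.56, limma adjusted p = 0.00890). Without the control thymocyte pair the adjusted p of Pttg1 was 0.0611 in limma.

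Kinetochore genes were low together, with the centromeric histone the highest in the resting libraries. Nuf2, Ndc80, Spc24 and Spc25 form the NDC80 complex, which binds microtubules, and in control quiescent thymocytes they kept 0.520%, 12.1%, 1.30% and 2.02% of the cycling level. In the CKO-labelled cells these shares were 18.5%, 34.6%, 17.0% and 17.8%. The outer kinetochore genes Cenpe, a kinesin, and Cenpf kept 3.74% and 2.05% in control and 27.7% and 13.4% in CKO-labelled thymocytes. Cenpf had a small error and fell by 3.16 in thymocytes (SE 0.30, limma adjusted p = 0.00617). Cenpa, the histone variant that marks centromeres, was at 149 and 125 FPKM in cycling and 26.2 and 43.6 FPKM in quiescent thymocytes. Its small pre-B values were 59.4 and 61.0 FPKM, against 158 and 163 FPKM in large cells. Cenpa and Pttg1 were the genes of the list with a ratio of CKO-labelled to control nearest to 1 in small pre-B cells, at 1.03 and 0.948.

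Kinesin and spindle genes contained another exception. Kif11, the motor that pushes spindle poles apart, was at 136 and 148 FPKM in cycling and 5.46 and 30.6 FPKM in quiescent thymocytes, and at 145 and 171 FPKM in large and 20.3 and 50.5 FPKM in small pre-B cells. The other motors and spindle factors were low in control quiescent thymocytes. Kif2c, which depolymerises microtubules at centromeres, was at 27.9 and 27.6 FPKM and then at 0.0860 and 3.95 FPKM. Kif4, a motor on chromosome arms, was at 38.1 and 42.2 FPKM and then at 0.244 and 8.49 FPKM. Tpx2, Hmmr and Nusap1, which nucleate or bundle spindle microtubules, kept 1.16% to 1.33% in control and 15.2% to 18.4% in CKO-labelled thymocytes. In pre-B cells the same 3 genes kept 11.2% to 14.1% and 21.1% to 29.3%. Fam83d, which directs casein kinase 1 to the spindle (chromosome 2, 158768093 to 158786637, plus strand, mm10), was at 114 and 104 FPKM in cycling and 187 and 201 FPKM in quiescent thymocytes. It was thus the most abundant of the 49 transcripts in both quiescent thymocyte libraries and in neither cycling one. In pre-B cells it was the lowest of the 49, with 13.8 and 15.2 FPKM in large and 1.28 and 2.73 FPKM in small cells. Fam83d rose by 0.83 in quiescent thymocytes (SE 0.16, limma adjusted p = 0.0136) and fell by 2.41 in small pre-B cells (SE 0.16, limma adjusted p = 0.00229). The rise in thymocytes did not pass without the control thymocyte pair or without the CKO-labelled one, with limma adjusted p-values of 0.0900 and 0.0889.

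Condensin subunits kept unequal shares of their transcripts in quiescent thymocytes. Smc4, the ATPase subunit shared by condensin I and II, was at 173 and 194 FPKM in cycling and 120 and 161 FPKM in quiescent thymocytes, a difference of -0.39 that did not pass the test (SE 0.18, limma adjusted p = 0.129). Its partner Smc2 was at 52.3 and 56.3 FPKM and then 4.01 and 15.8 FPKM. Ncapg of condensin I was at 41.7 and 42.1 FPKM in cycling thymocytes and at 0.101 and 7.997 FPKM in quiescent ones, the smallest control share of the list at 0.243%. Ncapd2, also of condensin I, was at 178 and 200 FPKM and then at 15.1 and 52.9 FPKM, and Ncaph kept 13.8% and 35.3%. Ncapg2 of condensin II was at 48.8 and 56.2 FPKM and then at 0.348 and 18.0 FPKM. Small pre-B cells had 8.42 and 25.1 FPKM of Ncapg2, against 37.1 and 51.0 FPKM in large cells. Smc4 fell by 1.45 in small pre-B cells (SE 0.18, limma adjusted p = 0.00479), from 170 and 193 FPKM to 48.6 and 89.2 FPKM.

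Top2a, the topoisomerase that untangles replicated DNA, was the most abundant member on average. It was at 266 and 282 FPKM in cycling and 3.27 and 52.0 FPKM in quiescent thymocytes, and at 365 and 397 FPKM in large and 62.3 and 144 FPKM in small pre-B cells. Mki67, the proliferation antigen that coats mitotic chromosomes, was at 139 and 198 FPKM in cycling and 1.70 and 48.3 FPKM in quiescent thymocytes. Its pre-B values were 158 and 187 FPKM in large and 35.0 and 75.5 FPKM in small cells. For both genes every resting library lay below every dividing library of its lineage.

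Cytokinesis genes had a median share of 4.59% over 6 genes in control quiescent thymocytes, against 2.02% for the list. Kif20a lay just below the list's median. Genes of other roles also lay above it, such as Bub1b at 10.5% and Ncaph at 13.8%. Racgap1, a regulator of the contractile ring, was at 134 and 144 FPKM in cycling and 4.06 and 28.1 FPKM in quiescent thymocytes. Kif23, its partner in the central spindle, kept 16.1% and 44.1%, and Anln, the ring protein anillin, 6.17% and 31.8%. Prc1, which bundles the central spindle, kept 11.3% and 23.0%, the kinesin gene Kif20a 2.00% and 20.0%, and Ect2, which activates RhoA at the division plane, 2.99% and 23.0%. In control small pre-B cells the 6 genes lay close together, from 13.2% for Kif20a to 17.8% for Racgap1. Cdca3, a trigger of mitotic entry, was at 175 and 158 FPKM in cycling and 1.32 and 23.2 FPKM in quiescent thymocytes. Foxm1, a transcription factor of late cell cycle genes, shares its row with 4933413G19Rik. That row was at 85.6 and 91.6 FPKM in cycling and 4.95 and 21.8 FPKM in quiescent thymocytes.

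Whether the state difference was unequal between the lineages was tested in the same fit. Only Fam83d and Pttg1 passed, at 3.24 (SE 0.23, limma adjusted p = 0.0128) and 0.97 (SE 0.14, limma adjusted p = 0.0293), where 3.62% of all genes were called in this direction. The 2 of 49 genes are near that share. Smc4 followed with 1.05 (SE 0.25, limma adjusted p = 0.0708). For 43 of 49 genes the fitted value was below 0, with a median of -1.04, and none of these was called at a background of 3.22%. Over 11 alternative settings the adjusted p ran from 0.0113 to 0.114 for Fam83d and from 0.0238 to 0.198 for Pttg1. The fitted value of Fam83d stayed between 2.29 and 3.72 and that of Pttg1 between 0.86 and 0.99. Both calls were lost without the control thymocyte pair, without the control pre-B pair and without the CKO-labelled pre-B pair, and that of Pttg1 also without the CKO-labelled thymocyte pair. Without the CKO-labelled thymocyte pair, 23 genes were called lower and 1 higher, where 3.28% of all genes were called in either direction.

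Across the 10 libraries the profiles of most genes followed each other. Pearson's r of each gene with the median of the other 48, on the log2(FPKM + 1) scale, had a median of 0.98 and a highest value of 0.995 at Tpx2, an activator of Aurora A. It was -0.58 for Pttg1, -0.23 for Fam83d and 0.50 for Smc4. These are descriptions over libraries that share pools of mice.

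The CKO-labelled and control libraries were set side by side within each population, without a test, since each group was 1 library. In quiescent thymocytes all 49 genes were higher in the CKO-labelled library, with a median log2 ratio of 2.22, from 0.07 for Pttg1 to 4.19 for Mki67. A ratio of at least 2-fold was reached by 43 of 49 genes, where 3.85% of all genes were higher by that size, counting those that reached 1 FPKM in either library, as all 49 did. With a floor of 5 FPKM in the higher library, 45 genes counted and 39 of them were at least 2-fold higher, against 3.66% of all genes. Only 17 of the 49 reached 5 FPKM in the control library, so most passed that floor through the CKO-labelled library in which they were high. The 6 genes under 2-fold were Pttg1, Fam83d, Smc4, Aurka, Prc1 and Cenpa. The control values behind the largest ratios were low, such as 0.101 FPKM for Ncapg, 0.109 FPKM for Espl1 and 0.0860 FPKM for Kif2c, and the fragments behind them are not known.

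In small pre-B cells 48 of 49 genes were higher in the CKO-labelled library, with a median log2 ratio of 0.98. The ratios were close to each other, with quartiles of 0.89 and 1.09, whereas those in quiescent thymocytes had quartiles of 1.40 and 2.64. Of the 49 genes 23 were at least 2-fold higher, where 5.27% of all genes were. Since the median lies near the limit, this count depends on the pseudocount, and with 5 in place of 1 it was 4. Ncapg2 had the highest ratio, 1.47, and Pttg1 the lowest, -0.07.

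In the 2 cycling populations and in granulocytes, the values of the 2 genotypes lay close together. In cycling thymocytes 0 of 49 genes were 2-fold apart (1.13% of all genes in either direction), and the ratios ran from -0.32 for Anln to 0.50 for Mki67. In large pre-B cells 0 of 49 were 2-fold apart (1.99% of all genes), and the ratios ran from -0.13 for Nek2 to 0.45 for Ncapg2. Granulocytes, which are labelled mature and were not counted as a cycling population, had 0 of 49 as well (2.51% of all genes). Their ratios ran from -0.27 for Mad2l1 to 0.35 for Cks2. In each population the count of 0 is near the share of all genes, so it does not set the mitotic genes apart.

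**Figure D4:**
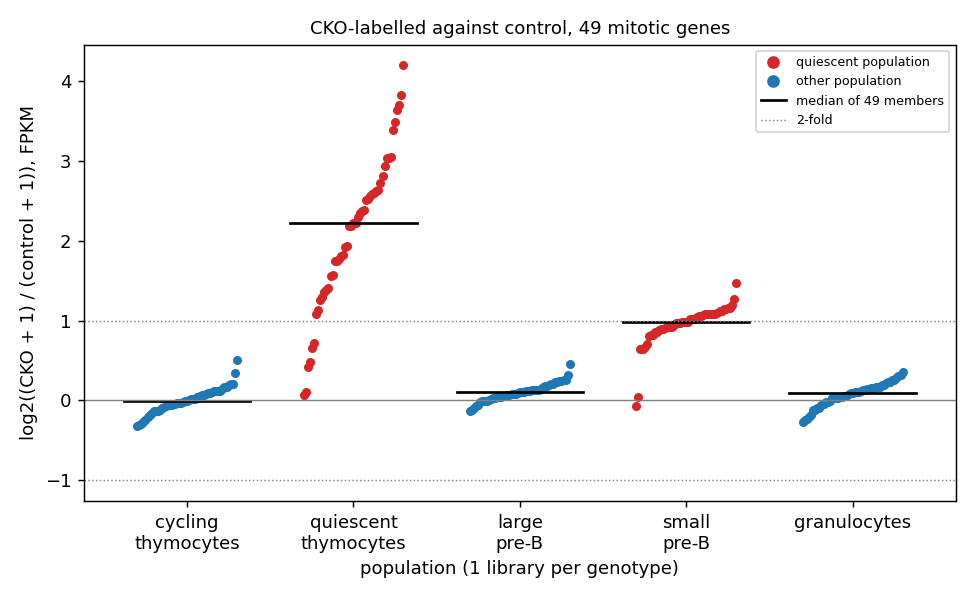
Ratio of the CKO-labelled to the control library, as log2 of (FPKM + 1), for the 49 genes in each population, with 1 point per gene in order of size and a black line at the median. Medians were -0.01 in cycling thymocytes, 2.22 in quiescent thymocytes, 0.10 in large pre-B cells, 0.98 in small pre-B cells and 0.10 in granulocytes, and dotted lines mark 2-fold.

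A fit that took the 2 quiescent populations as 2 pairs and the 2 cycling populations as 2 pairs gave a test of the genotype difference. In the quiescent populations 0 of 49 genes passed Benjamini-Hochberg adjustment in limma, and neither did any of the 11126 genes (0%). At an unadjusted p under 0.05 there were 46 of 49 mitotic genes and 2132 of all genes, and the median difference was 1.54 against -0.03 for all genes. Among the values nearest to the threshold was Ncaph of condensin I, at 1.23 (SE 0.11, limma adjusted p = 0.0595). Mki67 had a difference of 2.64 and a wider error (SE 0.73, limma adjusted p = 0.176), as its ratio was 4.19 in thymocytes and 1.09 in pre-B cells. With a term for the lineage, which left 1 residual degree of freedom, 46 of 49 were called, where 11.4% of all genes were. Without the small pre-B pair 43 were called and without the quiescent thymocyte pair 42, where 4.55% and 4.42% of all genes were. In those fits the quiescent effect rests on 1 library of each genotype, and the spread comes from the cycling pairs alone.

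In the cycling populations 0 of 49 were called by limma and 0 had an unadjusted p under 0.05, with a median difference of 0.03, where 0.027% of all genes were called. The genotype difference in quiescent minus that in cycling populations was above 0 for 48 of 49 genes, with a median of 1.56. No mitotic gene was called in this limma contrast, where 0.018% of all genes were, and 41 of 49 against 745 of 11126 genes had an unadjusted p under 0.05. Without the small pre-B pair 42 were called, where 1.82% of all genes were, again with 1 quiescent library of each genotype and the spread of the cycling pairs.

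Some lists of markers of other cells or of early B progenitors were mostly higher in the CKO-labelled library of small pre-B cells, and others mostly lower. Few such genes differed in quiescent thymocytes. In small pre-B cells 10 of 10 natural killer and innate genes were at least 2-fold higher in the CKO-labelled library, with sums of 14.9 and 126 FPKM. Likewise 6 of 7 plasmacytoid dendritic cell genes were (sums of 51.0 and 265 FPKM), and 6 of 9 early B progenitor genes were (sums of 1194 and 1902 FPKM). The other 3 early B progenitor genes were lower, and 5.27% of all genes were higher by that size. No gene of these 3 lists was listed at 0 in either small pre-B library. The same lists summed to 102 and 146 FPKM, 63.5 and 83.8 FPKM, and 1106 and 1692 FPKM in large pre-B cells. In small pre-B cells 15 of 15 granulocyte genes were lower in the CKO-labelled library (sums of 646 and 482 FPKM). So were 6 of 6 granulocyte precursor and 7 of 7 late granulocyte genes. Of 8 monocyte and macrophage genes 5 were lower there and 2 at least 2-fold higher, with sums of 50.9 and 122 FPKM. Of 10 B-lineage markers, 7 were lower and 3 at least 2-fold higher in CKO-labelled small pre-B cells. The B-lineage sums there were 5164 and 4066 FPKM. Of all genes with at least 5 FPKM in the higher of these libraries, 5213 of 8207 were lower. The 7 of 10 are near that share. In quiescent thymocytes the natural killer sums were 21.6 and 55.2 FPKM with 1 of 10 genes at at least 1 FPKM in each library, and Gzmb, Klre1 and Ncr1 were listed at 0 in both. The plasmacytoid sums were 392 and 293 FPKM there with Siglech at 0 in both, and the B-lineage sums were 8.31 and 3.08 FPKM. Early B progenitor genes summed to 1116 and 1124 FPKM there, with 3 of 9 at 1 FPKM or more in each library. The sum of that list is thus not particular to B cells. Monocyte and macrophage genes summed to 48.45 and 12.96 FPKM, with 2 of 8 at 1 FPKM or more in each library and Cx3cr1 at 0 in both. The median log2 ratio in these cells was 0.0 for the natural killer, plasmacytoid and B-lineage lists and 0.002 for the monocyte list. All 10 T-lineage markers were lower in the CKO-labelled library, with a median log2 ratio of -0.38 and sums of 4193 and 3233 FPKM. Of all genes with at least 5 FPKM in the higher quiescent thymocyte library, 4020 of 7852 were lower. The part of other cells in the mitotic values was not tested.

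Granulocytes stood between dividing and resting lymphoid cells. The median of the 49 genes was 38.6 and 38.2 FPKM, and relative to large pre-B cells the median share was 43.6% in control and 42.9% in CKO-labelled cells. Against the mean of both cycling lymphoid populations, 45 genes were lower and 1 higher, where 41.6% and 43.8% of 11383 genes were called lower and higher by limma, with a median of -1.08. Fam83d, at 6.52 and 6.04 FPKM, had a difference of -2.50 (SE 0.09, limma adjusted p = 1.18e-05) from a mean of 2 unlike populations, 114 and 104 FPKM in cycling thymocytes and 13.8 and 15.2 FPKM in large pre-B cells. Against large pre-B cells only, its difference was -1.09 and its control share 47.4%, above the median share. Nek2, a centrosomal kinase, had the lowest share against large pre-B cells in both genotypes, 15.3% and 20.3%. It was at 10.1 and 12.3 FPKM, or -2.10 (SE 0.10, limma adjusted p = 2.70e-05). Pttg1 was higher by 0.48 (SE 0.07, limma adjusted p = 0.00202), with 29.5 and 30.1 FPKM. Cks2, Anln and Kif23 did not pass, and Cks2 was the most abundant of the 49 genes in both granulocyte libraries at 229 and 293 FPKM. Granulocyte precursor markers (6 of 6 at 1 FPKM or more in both libraries) summed to 1901 and 792 FPKM, and the highest precursor sum in the lymphoid libraries was 924 FPKM. Late granulocyte markers summed to 31640 and 29164 FPKM. The share of precursors in the mitotic values was not tested.

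Other genes of the cell division machinery were taken from 4 further lists. Of 62 other mitotic genes, 61 fell in quiescent thymocytes (19.7% of all genes) and 53 in small pre-B cells (21.8%). Among them Ccna2, cyclin A2, had the largest thymocyte difference, -4.63 (SE 0.86, limma adjusted p = 0.0118). Ccna2 was at 165 and 165 FPKM in cycling and 0.780 and 24.3 FPKM in quiescent thymocytes. Stmn1, which destabilises microtubules, was among the most abundant, with 1269 and 1372 FPKM in cycling and 105 and 410 FPKM in quiescent thymocytes. In quiescent thymocytes 52 of the 62 were at least 2-fold higher in the CKO-labelled library (3.85% of all genes), and in small pre-B cells 31 were (5.27%).

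Replication origin genes fell in 18 of 18 cases in quiescent thymocytes (19.7% of all genes) and in 8 of 18 in small pre-B cells (21.8%). Their shares were higher than those of the mitotic genes, with medians of 16.2% in control and 42.4% in CKO-labelled thymocytes and 62.3% in CKO-labelled small pre-B cells. Mcm7, a subunit of the replicative helicase, was at 200 and 245 FPKM in cycling and 76.7 and 129 FPKM in quiescent thymocytes. The difference between these lists was not tested.

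Subunits of the APC/C and of cohesin, which mitosis also uses, were lower in 14 of 25 cases in quiescent thymocytes and in 14 of 25 in small pre-B cells, with 1 and 2 higher. Of all genes 19.7% and 21.8% were called lower and 25.2% and 25.6% higher. The median differences of the subunits were -0.61 and -0.49. In either CKO-labelled resting library 0 of 25 were 2-fold higher, near the 3.85% and 5.27% of all genes. Rad21, the kleisin subunit of cohesin, was at 224 and 231 FPKM in cycling and 102 and 132 FPKM in quiescent thymocytes. Among 11 DREAM and MuvB subunits, 4 fell and 2 rose in quiescent thymocytes, where 19.7% and 25.2% of all genes were called lower and higher. The 2 that rose are not above that share. Rbl1 (p107) fell by 1.83 (SE 0.30, limma adjusted p = 0.00920), from 32.9 and 36.6 FPKM to 5.51 and 14.5 FPKM. E2f4, the E2F subunit of DREAM, was at 62.6 and 57.8 FPKM in cycling and 90.9 and 63.1 FPKM in quiescent thymocytes, and this difference did not pass the test (limma adjusted p = 0.0856).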

How the data were processed

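Total RNA was sequenced from sorted populations, per the labels' protocols. The submitters' processing notes name TopHat2 2.0.8b, Cuffdiff 2.1.1 and the build mm10. The deposited values are read as FPKM, inferred from these tools and the values. The gene annotation, the strand setting and the depth are not given in the sources used here, so overlapping or antisense genes (such as Elovl1 at Cdc20 and Lcorl at Ncapg) may share reads with a member. Each table held 23179 rows, 201 of them exact repeats. Of the 47 symbols still on more than 1 row, the most abundant row was used.

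Values were tested as log2(FPKM + 1) by limma 3.58.1 with an intensity trend in R 4.3.3. Genes had to reach 1 FPKM in 2 of the fitted libraries, as all 49 members did, with Benjamini-Hochberg adjustment over all genes and a threshold of 0.05. Each fit had 2 residual degrees of freedom. Single libraries were compared by a size of 2-fold. Fits were tested on simulated data: 97% of 2-fold changes were recovered for thymocyte state, 95% for pre-B state, 74% for the difference of these, 91% for genotype in quiescent and 83% in cycling populations, 47% for the genotype difference between states and 94% for granulocytes. The planted changes were equal in all pairs, with normal noise, in genes above a floor of mean level. Unequal changes, such as that of Mki67 in quiescent populations, were not simulated, so these shares do not give the recovery of the mitotic genes. Each simulation also called 8 to 25 unchanged genes.

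The members, gene lists and tests were chosen with earlier results of these data known. Named in full are, by role, the most abundant member and those with the largest state or genotype differences, and of other lists the 3 most abundant genes or the most changed one. Alternatives were a pseudocount of 0.1 or of 5, no filter or one of 5 FPKM, median-ratio scaling, genes listed at 0 left out, other blocks and leaving out pairs. Gene positions are from GENCODE and promoters from RefSeq. Python 3.11.15 with pandas 2.3.3 was used.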

Additional observations from a re-analysis of the deposited data

Results flagged for a closer look

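The difference between resting and dividing cells was unlike in thymocytes and pre-B cells for Fam83d, by 3.24 on the log2(FPKM + 1) scale, and for Pttg1, by 0.97, in a limma test of the difference itself. These 2 of 49 genes are near the 3.62% of all genes called in that direction. Fam83d rose in quiescent thymocytes and fell in small pre-B cells. Pttg1 rose in quiescent thymocytes and had a pre-B difference of -0.06 (SE 0.10, limma adjusted p = 0.655).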

How the results depend on the processing

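Of 99 alternative settings of the counts of mitotic genes, 82 stayed within 1.5 times the reported count and 17 did not, and no single gene that was called in the reported fit reversed its sign. For small against large pre-B cells, 24 genes were called with a pseudocount of 0.1 (45.1% of all genes in either direction), 12 with no filter on low values (23.3%) and 21 with no genotype block (33.2%). The 12 of 49 are near the share of all genes. Leaving out pairs gave 0 to 48. For the difference between lineages the count was 0 with no filter and 1 with no genotype block, and 0 to 24 when pairs were left out. For genotype in quiescent populations, 46 were called with a genotype-by-lineage term, and 0 to 43 without single pairs. The genotype difference between states gave 0 to 42 and the thymocyte state 0 to 47 when pairs were left out. With a pseudocount of 5, 4 genes were 2-fold higher in CKO-labelled small pre-B cells. The cause of these changes was not tested. The state fits were blocked by lineage and genotype. The labels give no replicate numbers, so no pairing by replicate was tried. With depth unknown, values under 1 FPKM, which 17 of 49 members had in control quiescent thymocytes, carry no error of their own.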
